A study of Mus musculus with 20 samples.

Results

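The nuclear genome encodes most subunits of the respiratory chain, and 82 such genes among the 38924 genes of the liver expression table were followed here. They were the rows annotated as protein coding whose symbols begin with Nduf a, b, c, s or v and a number, Sdha to Sdhd, Uqcr, Cox4 to Cox8, or Atp5a to Atp5l. By symbol, 37 belonged to complex I, 4 to complex II, 8 to complex III, 18 to complex IV and 15 to complex V. All 82 identifiers overlapped the gene of the same identifier in GENCODE M21, which is on the mouse build GRCm38. The name rule takes in Atp5l-ps1, whose symbol marks a processed copy, as well as Ndufa4, now known to be a subunit of complex IV. Cox7a2l, also taken in, is described as a factor that joins complexes III and IV, which was not measured in these mice. The rule leaves out subunits with other names, such as Ndufab1, Cyc1 and Atp5o, which are given further on.

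Liver RNA came from 20 male mice, 5 in each of 4 groups, which had been bought at 5 weeks of age and, after 1 week of acclimation, fed for 12 weeks. NDWT were wild type (WT) C57/BL6 mice, given as C57BL/6J in the study's methods, on a control diet, and NDKO were mice labelled TSP-1 null, a line made to lack thrombospondin 1 (gene Thbs1), on the same diet. The study places the null line in a C57BL/6J background. HFWT and HFKO were WT mice and mice labelled TSP-1 null on CDAHFD, which is used to model non-alcoholic steatohepatitis. CDAHFD is a high fat diet without choline and with limited methionine, in which L-amino acids replace protein. The 2 genotypes were bought as separate lines and not as littermates, so that line and genotype cannot be told apart.

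Respiratory chain complexes sit in the inner mitochondrial membrane. Complexes I and II pass electrons from NADH and succinate to ubiquinone, complex III passes them on to cytochrome c and complex IV to oxygen, while complexes I, III and IV pump protons that drive ATP synthesis by complex V. Complexes I, III, IV and V each combine subunits made in the cytosol with a few encoded by mitochondrial DNA, whereas all subunits of complex II are nuclear. Hepatocytes are rich in mitochondria and use this chain to oxidize fatty acids and amino acids. Several complex IV subunits come in a form used by most tissues and a second form found mainly in muscle, lung or testis.

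The promoters of 66 of the 82 genes were present in the RefSeq windows for GRCm38.p6. The 250 bases upstream of the start site are shown for the gene with the highest mean level in each complex whose window was given, because NRF1 and the ETS factor GABPA are the classical activators of nuclear genes for this chain. Capitals mark matches on either strand to CGCANGCG, the core of NRF1 sites, or to CCGGAAG, the core of ETS sites, which do not overlap each other in these windows. The windows are chr6:11907451-11907700 (Ndufa4), chr9:50603850-50604099 (Sdhd), chr10:80406822-80407071 (Uqcr11) and chr5:115348959-115349208 (Cox6a1), all on the minus strand, and chr10:128083057-128083306 (Atp5b) on the plus strand, each written 5′ to 3′ along its gene.
Ndufa4: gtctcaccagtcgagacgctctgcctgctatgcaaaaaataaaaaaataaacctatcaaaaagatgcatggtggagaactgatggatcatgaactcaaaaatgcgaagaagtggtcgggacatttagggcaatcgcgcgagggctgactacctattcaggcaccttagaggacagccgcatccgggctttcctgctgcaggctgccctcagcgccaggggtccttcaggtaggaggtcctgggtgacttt
Sdhd: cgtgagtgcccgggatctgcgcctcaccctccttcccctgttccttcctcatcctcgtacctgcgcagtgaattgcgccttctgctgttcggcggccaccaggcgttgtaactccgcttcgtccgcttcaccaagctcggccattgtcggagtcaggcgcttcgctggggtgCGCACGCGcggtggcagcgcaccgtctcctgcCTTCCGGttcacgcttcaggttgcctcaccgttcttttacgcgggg
Uqcr11: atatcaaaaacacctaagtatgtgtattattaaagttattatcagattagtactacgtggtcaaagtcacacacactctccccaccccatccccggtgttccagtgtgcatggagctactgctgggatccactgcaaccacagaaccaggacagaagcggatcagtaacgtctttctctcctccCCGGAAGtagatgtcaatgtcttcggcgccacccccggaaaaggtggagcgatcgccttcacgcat
Cox6a1: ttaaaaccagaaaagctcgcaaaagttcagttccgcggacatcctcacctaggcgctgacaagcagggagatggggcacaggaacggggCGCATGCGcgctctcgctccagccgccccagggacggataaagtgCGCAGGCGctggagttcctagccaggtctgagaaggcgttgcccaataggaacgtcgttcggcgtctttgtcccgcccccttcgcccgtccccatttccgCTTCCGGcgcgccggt
Atp5b: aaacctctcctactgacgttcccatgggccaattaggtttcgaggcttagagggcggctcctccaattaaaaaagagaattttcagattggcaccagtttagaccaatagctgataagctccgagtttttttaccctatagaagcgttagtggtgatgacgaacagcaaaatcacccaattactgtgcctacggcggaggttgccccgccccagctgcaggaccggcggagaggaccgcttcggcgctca
Cox6a1 held 2 NRF1 cores and 1 ETS core and Sdhd held 1 of each. Uqcr11 held 1 ETS core. Ndufa4 and Atp5b held neither sequence in this window.

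Across the 66 windows, 15 (22.7%) held the NRF1 core and 11 (16.7%) the ETS core, and 22 (33.3%) held at least 1 of them. Of 17492 windows of protein-coding genes, 9.31% held the NRF1 core, 9.13% the ETS core and 17.1% at least 1. The 2 sets are not fully alike. For members the window nearest the annotated start was taken, for the others the first listed, and the latter were not matched for expression level. The NRF1 core was present in 8 of 32 windows of complex I, 2 of 3 of complex II and 4 of 13 of complex V, against 1 of 13 of complex IV and 0 of 5 of complex III. A match is a description of these letters and not of binding, which was not measured.

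Thbs1 was read first as a check of the labels. Its level was 0.058 to 0.326 FPKM (assigned fragments scaled to gene length and to the library total) in NDWT and 0.986 to 1.90 in the libraries labelled NDKO. On CDAHFD it was 3.46 to 6.10 in HFWT and 3.05 to 4.40 in those labelled HFKO. Thbs1 was therefore higher in the libraries labelled null than in WT on the control diet, against the labels, and the groups overlapped on CDAHFD. The value is a total over the gene and does not separate the deleted part from the rest, so the libraries are named here as they were labelled. They held 15641545 to 23276322 assigned fragments each, so that 3 fragments on a gene of 1 kb corresponded to 0.129 to 0.192 FPKM, a floor that covers counting error only. The 12 hepatocyte markers, which check the tissue label, summed to 37354 to 64661 FPKM per library, with 0 of them at 0 throughout a group.

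These genes were among the most abundant transcripts of the liver. Of the 82, 78 passed the filter (FPKM above 0.5 in at least 5 libraries) and were tested, and 72 had a mean above 10 FPKM. The median of their means was 73.4 FPKM, against 4.11 for all 14524 tested genes, which put the median member at percentile 94.9. They varied little between mice of a group: the median within-group SD was 0.12 on the log2 scale for members above 10 FPKM and 0.15 for the 4170 tested genes above that level.

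Levels per length differed widely among subunits of one complex. The highest mean over all libraries was 611 FPKM for Cox6a1, a small regulatory subunit of complex IV, followed by 428 for Ndufa4. The highest in the other complexes were Atp5a1, the alpha subunit of the ATP synthase, at 316 FPKM, Uqcrq of complex III at 186 and Sdhd, a membrane anchor of complex II, at 121, which Sdha, the flavoprotein, matched at 121. In complex I, Ndufb2 was at 2.52 FPKM and Ndufb7 at 12.7. These levels depend on the length the table assigns to a gene, which is 5628 bases for Ndufb2 and 4522 for Ndufb7 against 492 for Ndufa4. FPKM thus differed among the genes of a complex, and the part of the assigned length in this was not tested.

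The filter left out 4 members. Cox7b2 and Cox8c, known from testis, held 0 fragments in all 20 libraries. Cox8b, the heart and muscle form of COX8, ranged from 0 to 1.58 FPKM, the highest value being 13 fragments in 1 library labelled NDKO. Cox4i2, the lung form of COX4, held 6 fragments over NDWT and 6 over NDKO, 23 over HFWT and 18 over HFKO. That is 3.86 times as many per assigned fragment in HFWT as in NDWT (95% counting interval 1.53 to 11.6) and 3.12 times in HFKO as in NDKO (1.19 to 9.60), and the intervals cover counting error and not the spread between mice. Without the filter Cox4i2 was a higher DEG in both genotypes (log2FC 1.08, adjusted p = 0.0147, and 1.01, adjusted p = 0.0226).

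The first comparison asked how CDAHFD changed these genes in WT livers and in those labelled null. On the deposited scale 62 of 78 tested members in WT and 66 of 78 in the libraries labelled null had a log2FC below 0, of which 33 and 31 passed the FDR, while the median of all tested genes lay above 0. The summed FPKM of all members was 8229 ± 598 in NDWT (SD, n = 5 mice in each group) and 7323 ± 270 in HFWT, a difference of -11.0%. It was 8132 ± 143 in NDKO and 7326 ± 584 in HFKO, a difference of -9.91%. For all members together the libraries of the 2 diets overlapped in both genotypes.

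The sums of all 5 complexes were lower on CDAHFD in both genotypes. In WT the summed level on CDAHFD differed from that on the control diet by -13.4% for complex III, -13.3% for complex V, -11.3% for complex I, -9.64% for complex II and -8.09% for complex IV. In the libraries labelled null the differences were -13.1% for complex III, -12.5% for complex II, -11.8% for complex V, -10.1% for complex I and -6.27% for complex IV. Complex V did not overlap between the diets in either genotype: its sum was 1640 to 1898 FPKM in NDWT against 1495 to 1595 in HFWT, and 1732 to 1873 in NDKO against 1446 to 1713 in HFKO. Complex III ran from 965 to 1130 in NDWT and from 872 to 951 in HFWT without overlap, while in the libraries labelled null it was 1009 to 1088 in NDKO and 813 to 1012 in HFKO, which overlapped. The other sums overlapped in both genotypes. A sum is led by its most abundant members and was given no test. Grouped by symbol, Ndufa4 counts in the sum of complex I, at 474 to 506 FPKM in NDWT and 301 to 450 in HFWT. The order of complexes I and IV in WT depends on that placement.

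**Figure D1:**
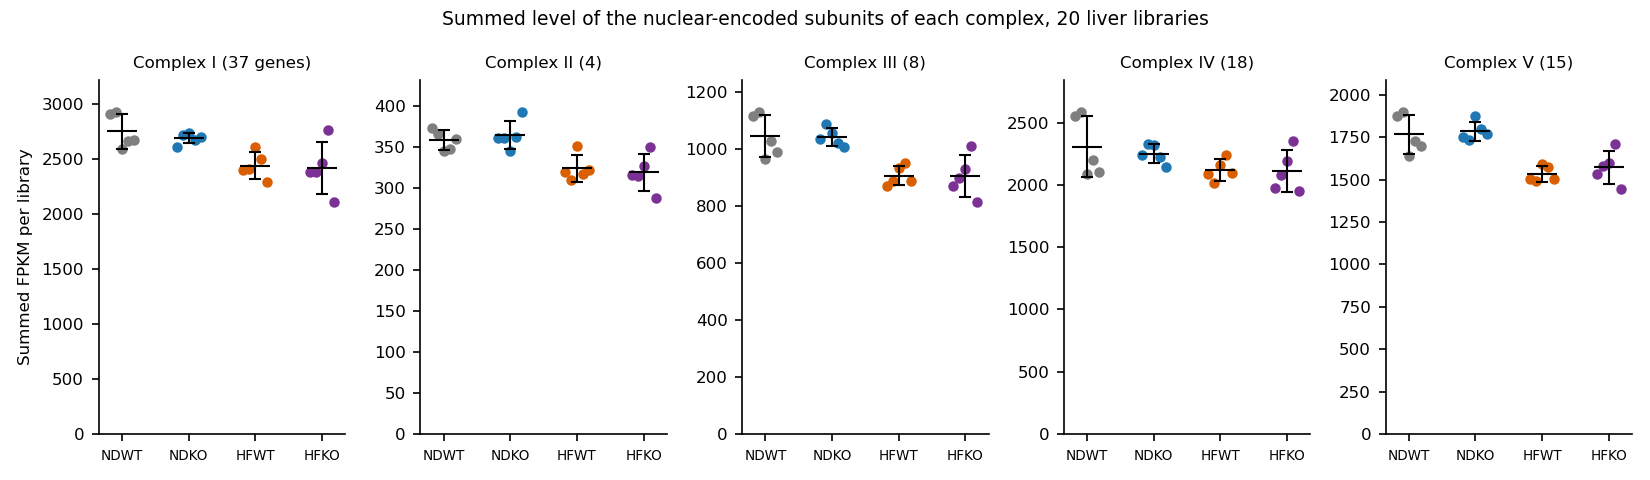
Summed FPKM of the nuclear-encoded subunits of complexes I to V (one panel each) in each of 20 liver libraries; points are single mice in the groups NDWT, NDKO, HFWT and HFKO, and bars show the mean ± SD of 5. Genes are grouped by symbol, with Ndufa4 in complex I. The mean of each CDAHFD group lies below that of its control group in every panel. Single libraries overlap in complexes I, II and IV, and in complex III in the libraries labelled null. In the panel of complex V no CDAHFD library (1446 to 1713) reaches the lowest control library of its own genotype (1640 in NDWT, 1732 in NDKO).

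Libraries moved together across complexes. NDWT libraries 1 and 2 had the highest sums of their group in all 5 complexes (2911 and 2925 FPKM for complex I, against 2587 to 2670 in the other NDWT libraries). HFKO library 4 had the highest and HFKO library 5 the lowest sum of its group in all 5 complexes (2760 and 2110 for complex I). The difference of complex IV in WT, summed by symbol and so without Ndufa4, rested on the former. It was -5.51% without NDWT library 1, -5.23% without library 2 and -0.47% without both. Without both, the WT differences of the other complexes were -7.56% for complex I, -7.67% for complex II, -8.86% for complex III and -9.14% for complex V. Overlap could not change here, since the control libraries left out were the highest of their group. In the libraries labelled null, leaving out HFKO library 4 gave -8.98% (complex IV) to -15.7% (complex III), with overlap in complex IV alone. Leaving out HFKO library 5 gave -4.50% (complex IV) to -10.9% (complex III). All but complex V then overlapped, as before, which leaving out the lowest CDAHFD library could not change.

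Single genes were called by 2 rules: a differentially expressed gene (DEG) passed an FDR of 0.05 with an absolute log2FC above 0.58, and a gene passed the FDR alone when no fold change was asked for. In HFWT against NDWT, 2 of 78 members were DEGs, both higher, and 0 were lower DEGs, where 44.1% of all tested genes were higher and 4.62% lower DEGs. By limma 40 members had an unadjusted p under 0.05. Limma voom on recovered fragments, under the same filter, gave 2 higher and 0 lower DEGs. In both fits the 2 were Ndufa4l2 and Cox6a2. Cox6a2 passed the filter only through the CDAHFD groups, so its call is no support. By the FDR alone 5 members rose, against 64.4% of all tested genes, and 33 fell, against 8.73%. The median log2FC of the members was -0.13, where that of all tested genes was 0.53, and 75 of the 78 lay below the latter. Without NDWT libraries 1 and 2, a setting added after the values were seen, 4 members (Cox6a2, Ndufa4l2, Cox7a1 and Cox6b2) were higher DEGs and 0 lower, 9 rose and 18 fell by the FDR alone, and the median log2FC was -0.08. On the deposited scale the difference of the typical member over all libraries was thus small, -8.79%, and opposite to that of the typical gene.

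In HFKO against NDKO the counts were alike. The 2 DEGs were again Ndufa4l2 and, with the same limit, Cox6a2. Both were higher, against 41.9% of all tested genes, and 0 were lower, against 4%. By limma 36 members had an unadjusted p under 0.05, and voom under the same filter gave 2 and 0 DEGs. By the FDR alone 2 members rose, against 64% of all tested genes, and 31 fell, against 7.69%. The members' median log2FC was -0.14 and that of all tested genes 0.50. Of the genes that fell, 22 were shared, which is 66.7% of those in WT and 71.0% of those in the libraries labelled null. They included all 5 genes of complex III that fell in either (Uqcr11, Uqcrb, Uqcrfs1, Uqcrh and Uqcrq), 10 of complex I, 5 of complex V, Sdhd and Cox7b. Leaving out 1 library at a time, 23 (without NDWT library 1) to 35 members fell in WT and 24 (without HFKO library 5) to 44 (without HFKO library 4) in the libraries labelled null.

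**Figure D2:**
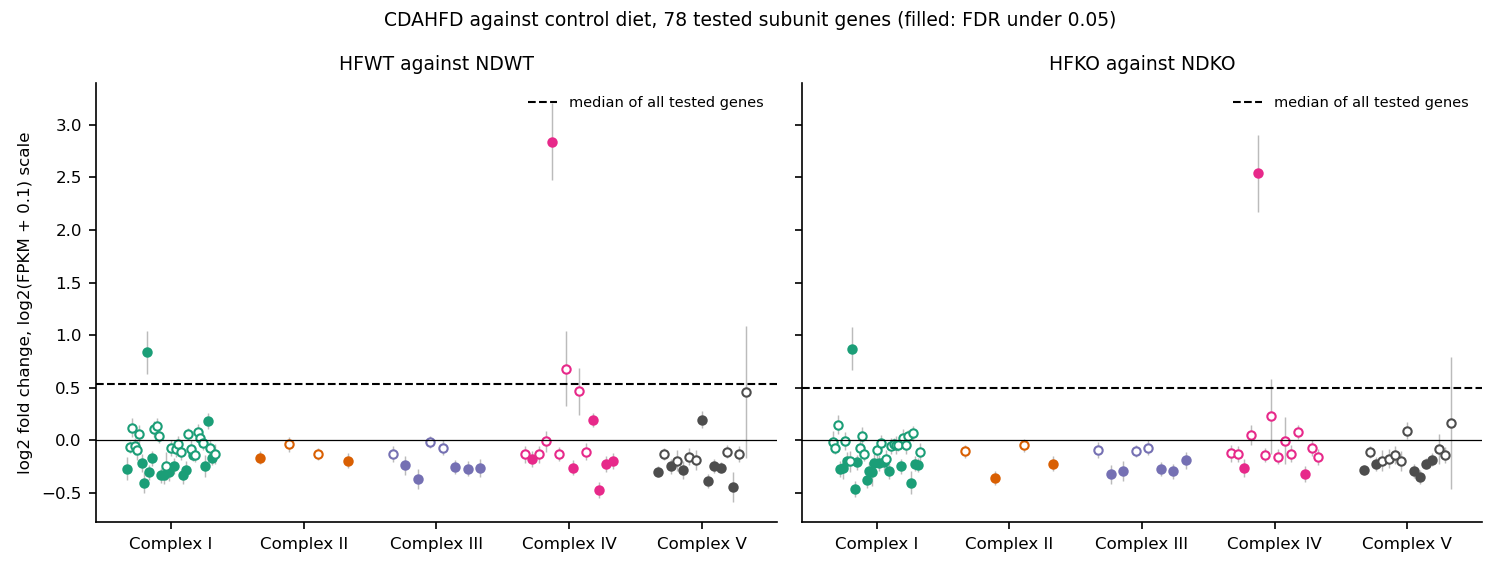
Log2FC of the 78 tested members on CDAHFD against control diet, on the log2(FPKM + 0.1) scale, by complex, in WT (left) and in the libraries labelled null (right); bars are SE, filled points passed the FDR alone and the dashed line is the median of all tested genes (0.53 and 0.50). Most points lie between -0.5 and 0, and the points far above the rest are Cox6a2 (2.84 and 2.54) and Ndufa4l2 (0.84 and 0.87).

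FPKM are shares of a library, so these values depend on what the other genes did. The 100 most abundant genes took 40.4% of fragments in NDWT and 42.3% in NDKO, but 31.8% in HFWT and 34.1% in HFKO. When the libraries were rescaled by the median of ratios, which sets the typical gene to no change, the median log2FC of the members became -0.69 in WT and -0.67 in the libraries labelled null. Then 1 member was a higher and 60 were lower DEGs in WT, where 22.7% of all tested genes were higher and 15.4% lower, and 1 and 59 in the libraries labelled null, where the shares were 22.2% and 13.6%. With the median of ratios taken over the 4170 genes above 10 FPKM, a scaling added after the values were seen, 5 and 6 members were lower DEGs, near the 7.57% and 6.83% of all tested genes, and the median log2FC were -0.37 and -0.40. Quantile normalization gave 1 and 4 lower DEGs, where 16.2% and 13.7% of all tested genes were lower, with medians of -0.20 and -0.25. The medians of all tested genes were then -0.07 and -0.06. The members lay -0.13 and -0.19 from them, against -0.66 and -0.64 on deposited FPKM. For complex IV that gap was -0.01 and -0.02, with 7 of its 14 tested genes below the median of all in each genotype. The members' median was thus below 0 and below that of all genes under each of these scalings, while the size of the difference from the control diet ranged from -0.13 to -0.69 in WT. No spike-in that would fix the scale is described.

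**Figure D3:**
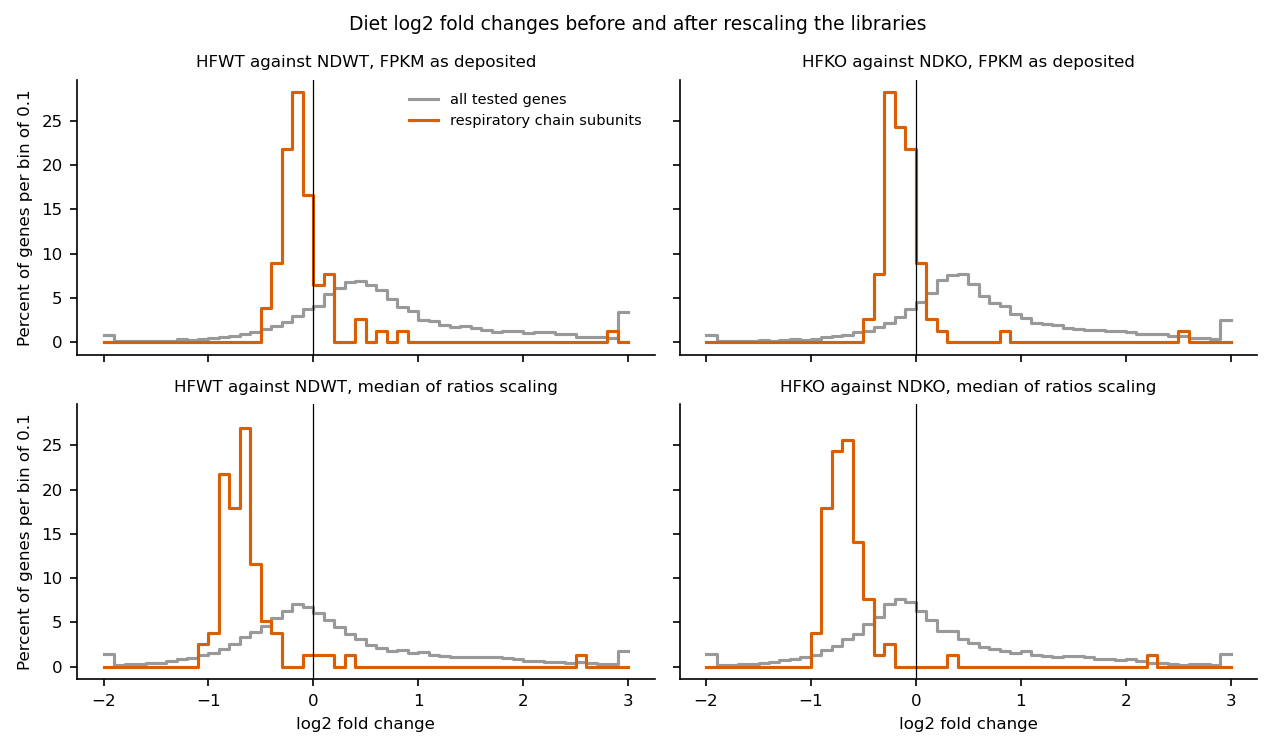
Share of genes (percent, y axis) in log2FC bins of 0.1 (x axis, values beyond -2 and 3 gathered in the end bins) for all 14524 tested genes and the 78 tested members, in WT (left) and in the libraries labelled null (right), on deposited FPKM (top) and after median of ratios scaling (bottom). The members form a narrow peak to the left of the broad distribution of all genes in each panel, around -0.13 and -0.14 in the top panels and around -0.69 and -0.67 in the bottom panels.

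Markers of several cell types differed between the diets. Among all tested genes, 8.73% fell and 64.4% rose by the FDR alone in WT, and 7.69% and 64% in the libraries labelled null. Higher DEGs were 44.1% and 41.9% of all tested genes, and lower DEGs 4.62% and 4%. Of 12 hepatocyte markers, 8 fell and 0 rose by the FDR alone in WT, and 9 and 0 in the libraries labelled null, with summed levels of 55209 to 58384 FPKM in NDWT and 37354 to 50474 in HFWT, and of 59766 to 64661 in NDKO and 44697 to 58310 in HFKO. All 10 stellate cell and myofibroblast markers were higher DEGs in both genotypes, with sums of 12.7 to 18.2 FPKM over the control libraries and 119 to 294 over those of CDAHFD. Of 9 macrophage markers, 7 in WT and 8 in the libraries labelled null were higher DEGs and 1 a lower one, with sums of 167 to 287 and of 756 to 1651. Lymphocyte markers were higher in 9 of 10 in both, and cholangiocyte markers in 6 of 6. Endothelial markers had 2 and 3 higher DEGs of 8, below the 44.1% and 41.9% of all tested genes. In bulk RNA, fewer cells of a type and less RNA per cell cannot be told apart, and the part of cell composition in the members' values was not tested.

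Complex I takes electrons from NADH through a core of 7 nuclear subunits, which carry its flavin and iron-sulfur clusters, and many accessory subunits. By the FDR alone 14 of its 37 genes fell and 2 rose in WT, and 16 fell and 1 rose in the libraries labelled null, with median log2FC of -0.09 and -0.13. These and the counts of the other complexes are read against the 8.73% and 7.69% of all tested genes that fell and the 64.4% and 64% that rose. Ndufs7 and Ndufv2, both core subunits, fell in both genotypes. Ndufs1, the largest core subunit, had a log2FC of -0.08 and -0.04 and did not pass.

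Ndufs8, a core subunit with 2 iron-sulfur clusters, went the other way in WT. Its level was 50.3, 51.4, 45.6, 40.0 and 44.6 FPKM in NDWT and 55.2, 47.3, 55.4, 55.1 and 49.9 in HFWT, so that the groups overlapped. It passed by the FDR alone (log2FC 0.18, SE 0.07, adjusted p = 0.0303), and the call was lost on leaving out any one of HFWT libraries 1, 3 and 4 or NDWT libraries 3, 4 and 5. Its log2FC in the libraries labelled null was 0.07 (adjusted p = 0.42). Ndufs8 was 1 of 13 genes chosen for description after their values were seen, the others being Ndufa5, Ndufb10, Ndufb3, Sdhb, Sdhd, Uqcrb, Uqcrfs1, Cox7b, Cox7a2l, Atp5g1, Atp5g2 and Atp5g3.

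Of the accessory subunits, Ndufa5 had the lowest FDR among those that fell in the libraries labelled null. It measured 67.7, 61.4, 58.0, 71.7 and 59.8 FPKM in NDKO and 44.6, 52.4, 44.5, 49.5 and 40.4 in HFKO. In WT it was 60.7 to 66.1 in NDWT and 46.8 to 55.7 in HFWT. No CDAHFD library reached the control libraries of its genotype, with log2FC of -0.46 (SE 0.07, adjusted p = 1.33e-05) and -0.30 (SE 0.07, adjusted p = 0.000966).

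Ndufb10, a subunit of the membrane arm, fell without overlap in both genotypes. It was 91.3, 94.9, 78.8, 77.9 and 87.0 FPKM in NDWT and 64.0, 65.2, 73.6, 71.5 and 66.2 in HFWT (log2FC -0.33, SE 0.07, adjusted p = 0.000493). Its level was 82.3 to 92.6 in NDKO and 57.2 to 74.6 in HFKO (log2FC -0.38, SE 0.07, adjusted p = 0.000144). The promoter windows of Ndufa5 and Ndufb10 each held 1 NRF1 core. That of Ndufa8, which did not fall in both genotypes, held 2, and that of Cox7b, which did, held 0. A link between this core and the diet difference was not tested.

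Ndufa4 was 484, 489, 474, 489 and 506 FPKM in NDWT and 339, 417, 450, 360 and 301 in HFWT. All CDAHFD libraries were lower, with a wider spread (SD 60 against 12), and Ndufa4 fell in WT (log2FC -0.40, SE 0.10, adjusted p = 0.00136). Its level was 424 to 475 in NDKO and 322 to 484 in HFKO, which overlapped and did not pass (log2FC -0.20, SE 0.10, adjusted p = 0.0791). The difference between the 2 diet effects did not pass either (adjusted p = 0.549).

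Its paralog Ndufa4l2, a hypoxia-inducible gene whose protein is known to restrain complex I, rose in both genotypes from a low level. It was 0.85, 0.874, 0.585, 0.668 and 1.36 FPKM in NDWT and 1.98, 1.27, 1.70, 1.41 and 1.57 in HFWT, where the highest control library lay within the CDAHFD range. With the null label it was 1.16, 0.779, 1.39, 0.652 and 1.29 on the control diet and 2.12, 1.80, 2.03, 2.16 and 1.64 on CDAHFD, without overlap. The log2FC was 0.84 (SE 0.20, adjusted p = 0.00106) and 0.87 (SE 0.20, adjusted p = 0.000763). These values rested on 80 fragments in NDWT against 143 in HFWT and on 100 in NDKO against 178 in HFKO. After median of ratios scaling the log2FC was 0.32 and 0.37 and after quantile normalization -0.15 and 0.04, and the calls were lost.

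Complex II oxidizes succinate and shares its 4 subunits with the citric acid cycle. In each genotype 2 genes fell by the FDR alone, with median log2FC of -0.15 and -0.16. Sdhd was 135, 124, 118, 119 and 126 FPKM in NDWT and 104, 105, 126, 110 and 102 in HFWT, where the groups overlapped through HFWT library 3 (log2FC -0.19, SE 0.07, adjusted p = 0.0226, lost without HFWT library 1 or 5 or NDWT library 1). Sdhd fell as well in those labelled null (log2FC -0.22, SE 0.07, adjusted p = 0.00991). Sdha was 131 to 136 FPKM in NDWT and 111 to 124 in HFWT and fell without overlap (log2FC -0.16, SE 0.06, adjusted p = 0.0168, lost without HFWT library 4). Between NDKO and HFKO Sdha did not pass (log2FC -0.11, SE 0.06, adjusted p = 0.117).

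Sdhb, the iron-sulfur subunit, passed in the libraries labelled null and not in WT. It was 64.7, 71.0, 57.9, 62.5 and 64.2 FPKM in NDWT and 60.7, 56.1, 67.2, 62.9 and 64.7 in HFWT. It was 79.4, 71.3, 72.5, 75.8 and 81.7 in NDKO and 58.4, 60.1, 60.0, 66.1 and 52.9 in HFKO. The WT groups overlapped (log2FC -0.04, SE 0.07, adjusted p = 0.614), whereas in the libraries labelled null it fell without overlap (log2FC -0.36, SE 0.07, adjusted p = 0.000108). The interaction had the lowest p of all members (log2FC -0.32, unadjusted p = 0.00365), but did not pass (adjusted p = 0.116).

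In complex III, which passes electrons to cytochrome c, all 8 genes had a log2FC below 0 in both genotypes, with medians of -0.24 and -0.23, and 5 fell in each by the FDR alone. Uqcrfs1, the Rieske iron-sulfur protein, was 126, 118, 119, 117 and 121 FPKM in NDWT and 95.7, 99.4, 105, 101 and 103 in HFWT (log2FC -0.25, SE 0.07, adjusted p = 0.00192), without overlap. For NDKO and HFKO it was 112 to 132 and 86.9 to 118, which overlapped through HFKO library 4 (log2FC -0.28, SE 0.07, adjusted p = 0.000948). Uqcrb, which lies near the ubiquinone site, had a log2FC of -0.37 (SE 0.09, adjusted p = 0.00177) and -0.29 (SE 0.09, adjusted p = 0.00992), with 34.8% of its 31-base transcript sequences shared with other genes.

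Uqcrq, the most abundant gene of complex III, was 221, 225, 186, 198 and 196 FPKM in NDWT and 168, 170, 180, 187 and 149 in HFWT, which overlapped slightly. It fell in WT (log2FC -0.26, SE 0.08, adjusted p = 0.0085), a call lost without NDWT libraries 1 and 2 together (log2FC -0.18, adjusted p = 0.0944), as were those of Sdha, Sdhd and Cox7a2l. Between NDKO and HFKO it stood at the threshold (log2FC -0.19, SE 0.08, adjusted p = 0.0496), and 19 of 35 alternative settings put it on the other side, among them leaving out HFKO library 1, 2 or 5, NDKO library 1, 2 or 3, HFWT library 1, 2 or 3, or NDWT library 1, 4 or 5. The core proteins Uqcrc1 and Uqcrc2 did not pass, with log2FC of -0.02 and -0.07 in WT and -0.10 and -0.07 in the libraries labelled null.

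Complex IV reduces oxygen, and its nuclear subunits surround a catalytic core encoded by mitochondrial DNA. Of 14 tested genes 5 fell by the FDR alone and 2 rose in WT, and 2 fell and 1 rose in the libraries labelled null, beside 8.73% and 7.69% of all tested genes that fell. Cox7b had the lowest FDR of the members that fell in WT. It was 101, 101, 99.4, 94.6 and 101 FPKM in NDWT and 66.7, 71.1, 77.9, 74.6 and 68.5 in HFWT, without overlap (log2FC -0.47, SE 0.08, adjusted p = 1.36e-05). Its level was 85.6 to 95.5 in NDKO and 59.9 to 88.4 in HFKO (log2FC -0.32, SE 0.08, adjusted p = 0.000892), where HFKO library 4 alone reached the control range.

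Cox6a1, the most abundant member, did not pass in either genotype. It was 734, 735, 533, 571 and 518 FPKM in NDWT and 650, 565, 604, 642 and 579 in HFWT, so that NDWT libraries 1 and 2 set the width of the control group. The log2FC was -0.01 (SE 0.10, adjusted p = 0.933) in WT and 0.05 (SE 0.10, adjusted p = 0.647) in the libraries labelled null. Cox4i1, the common form of COX4, had a log2FC of -0.13 and -0.12 and did not pass either.

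Cox7a2l rose in WT by the FDR alone, and whether its product joins complexes in these livers was not measured. It was 65.8, 62.6, 63.5, 66.8 and 70.4 FPKM in NDWT and 75.8, 74.95, 82.7, 70.4 and 72.7 in HFWT, the lowest CDAHFD library lying just above the highest control library (log2FC 0.19, SE 0.07, adjusted p = 0.0127). In the libraries labelled null the log2FC was 0.08 (SE 0.07, adjusted p = 0.272). After median of ratios scaling Cox7a2l, Ndufs8 and Atp5g2 all lay lower on CDAHFD in WT, with log2FC of -0.37, -0.38 and -0.37.

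The largest fold among all members was that of Cox6a2, the heart and skeletal muscle form of COX6A, from a level near 0. It was 0, 0.182, 0.085, 0 and 0 FPKM in NDWT and 1.19, 1.61, 0.45, 0.914 and 0.703 in HFWT. In the libraries labelled null it was 0.074, 0.067, 0.081, 0.19 and 0 on the control diet and 0.619, 1.26, 1.35, 0.692 and 0.797 on CDAHFD. Every CDAHFD library lay above every control library, with a log2FC of 2.84 (SE 0.37, adjusted p = 1.06e-06) and 2.54 (SE 0.37, adjusted p = 4.7e-06). The counts behind this were 3 fragments in NDWT and 60 in HFWT, a ratio of 20.1 (95% counting interval 6.56 to 100.3), and 5 in NDKO and 57 in HFKO, a ratio of 11.8 (4.79 to 37.9). Cox6a2 passed the filter only through the CDAHFD groups, since its highest control library was at 0.19 FPKM, so that a tested Cox6a2 had to differ and its p and its place among the DEGs are no support. The fitted log2FC depends on the pseudocount and ranged from 0.88 to 4.99 in WT over the settings in which it passed the filter. The call was kept in each, and the same limit applies wherever a filter on level was used.

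Cox6a2 remained a trace of the COX6A transcripts, at 0.161% of Cox6a1 and Cox6a2 together in HFWT and 0.152% in HFKO. The gene (chromosome 7, 128205436 to 128206366, minus strand) lies within the span of Itgad (128154376 to 128223816, plus strand), a leukocyte integrin, and 6.15% of its 31-base transcript sequences occur in Itgad transcripts on the other strand. Itgad was listed at a mean of 0.0062 FPKM in NDWT, 0.0866 in HFWT, 0.0178 in NDKO and 0.0652 in HFKO. The strand setting of the counting is not given in the sources used here, so reads of the pair may not be told apart, and the part of Itgad in the value was not tested. Of 12 markers of muscle and brown fat 1 was tested and did not pass. Their summed level was 0.75 to 2.63 FPKM in NDWT, 0.72 to 1.60 in HFWT, 0.58 to 1.83 in NDKO and 0.83 to 1.23 in HFKO, and Myh1, the myosin of fast muscle, was at 0 throughout.

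The other tested tissue forms did not pass in any comparison. Cox7a1, the heart and muscle form of COX7A, was 3.78, 2.47, 2.01, 3.04 and 1.79 FPKM in NDWT and 4.14, 3.79, 1.76, 4.41 and 4.45 in HFWT (log2FC 0.47, SE 0.22, adjusted p = 0.0676). It was a DEG in WT without HFWT library 3 (log2FC 0.71, adjusted p = 0.00155) or without NDWT library 1 (log2FC 0.61, adjusted p = 0.0209). In the libraries labelled null its adjusted p was 0.994, with 2.53 to 3.23 FPKM in NDKO and 2.16 to 3.61 in HFKO. Cox6b2, the testis form of COX6B, was 0.152 to 1.19 FPKM in NDWT and 0.712 to 2.40 in HFWT (log2FC 0.68, SE 0.36, adjusted p = 0.0911) and was a DEG without NDWT library 2 (log2FC 0.90, adjusted p = 0.0292). Its common form Cox6b1 was 245 to 281 and 221 to 268.

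**Figure D4:**
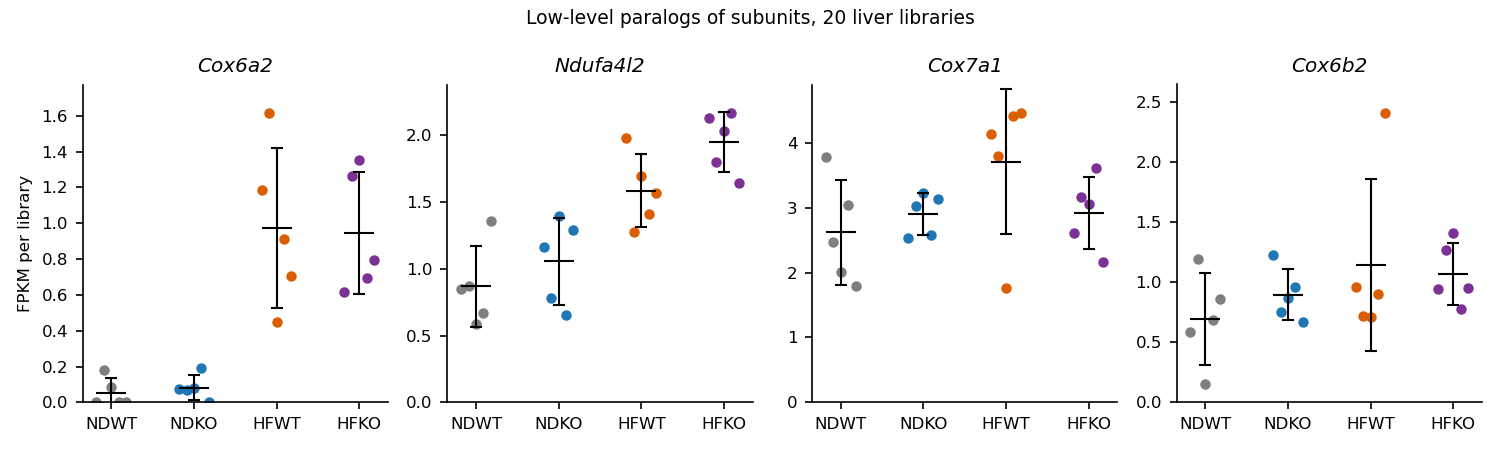
FPKM of the low-level paralogs Cox6a2, Ndufa4l2, Cox7a1 and Cox6b2 in each of 20 libraries (y axis from 0); points are single mice by group and bars show the mean ± SD of 5. Cox6a2 is at or near 0 (highest 0.19) on the control diet and at 0.45 to 1.61 on CDAHFD, while Cox7a1 and Cox6b2 overlap between all groups.

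Complex V makes ATP with a catalytic head and a rotating ring of c subunits. Of its 15 genes 7 fell by the FDR alone and 1 rose in WT, and 6 fell and 0 rose in the libraries labelled null, with medians of -0.19 and -0.18. Atp5a1 was 350, 356, 320, 336 and 337 FPKM in NDWT and 277, 274, 296, 274 and 263 in HFWT. In the libraries labelled null it was 362, 347, 360, 348 and 361 on the control diet and 288, 295, 302, 304 and 271 on CDAHFD. The diets did not overlap in either genotype (log2FC -0.30, SE 0.05, adjusted p = 2.36e-05, and -0.28, SE 0.05, adjusted p = 4.23e-05). Its partner in the head, the catalytic beta subunit Atp5b, did not pass, with log2FC of -0.13 (adjusted p = 0.0526) and -0.11 (adjusted p = 0.0876).

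The c subunit is encoded by 3 genes whose mature proteins are the same, and their balance shifted with diet. Atp5g3 was 159, 157, 144, 145 and 150 FPKM in NDWT and 101, 123, 124, 112 and 120 in HFWT, and fell without overlap (log2FC -0.39, SE 0.07, adjusted p = 4.21e-05). It also fell in the libraries labelled null (log2FC -0.29, SE 0.07, adjusted p = 0.000712), from 140 to 155 down to 105 to 133. Atp5g1, the lowest of the 3, had a log2FC of -0.18 and -0.19 and did not pass.

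Atp5g2 was 135, 132, 104, 110 and 104 FPKM in NDWT and 132, 125, 125, 138 and 147 in HFWT, which overlapped. It rose in WT by the FDR alone (log2FC 0.19, SE 0.08, adjusted p = 0.0354), a call lost without any one of HFWT libraries 4 and 5 or NDWT libraries 3, 4 and 5, and had a log2FC of 0.09 (adjusted p = 0.32) in the libraries labelled null. As a share of the FPKM of the 3 genes, which a single factor per library does not change, Atp5g2 made up 40.1% ± 1.93 in NDWT and 49.6% ± 2.60 in HFWT, and 41.4% ± 1.82 in NDKO and 47.7% ± 2.55 in HFKO. The lowest share on CDAHFD (45.1%) exceeded the highest on the control diet (43.4%) over all 20 libraries. The share of Atp5g3 went from 52.1% ± 2.24 to 43.0% ± 2.95 in WT. Of the 31-base transcript sequences of Atp5g2, 40.2% occur in transcripts of other genes, mostly Gm10175, which was listed at 0 to 0.589 FPKM, whereas Atp5g3 shares none.

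**Figure D5:**
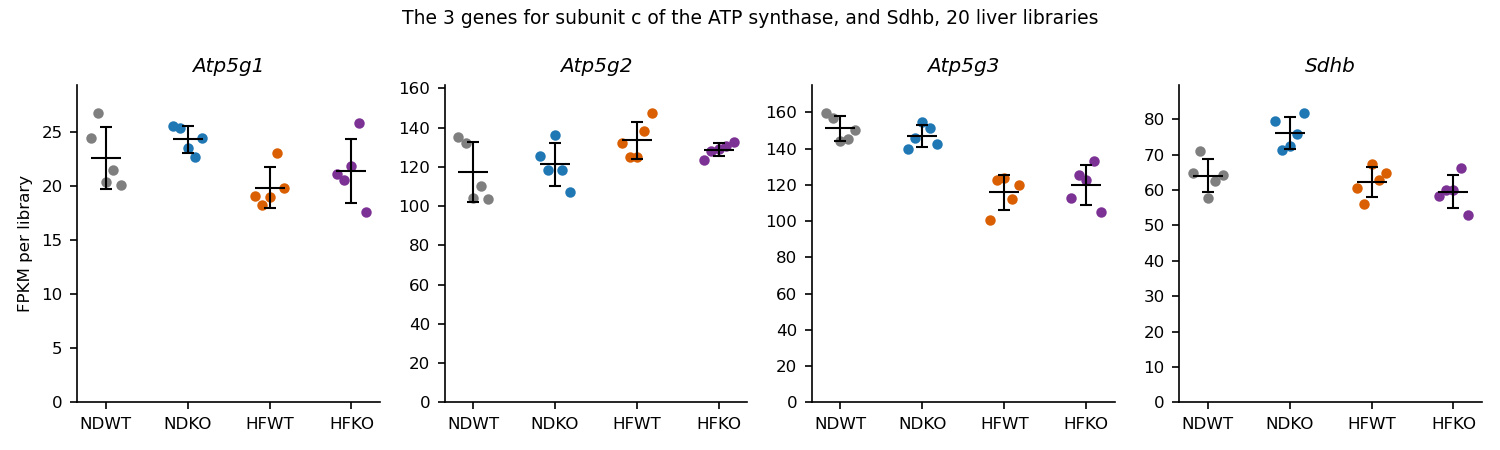
FPKM of Atp5g1, Atp5g2 and Atp5g3, the genes for subunit c of the ATP synthase, and of Sdhb in each of 20 libraries (y axis from 0); points are single mice by group and bars show the mean ± SD of 5. Atp5g3 is lower in both CDAHFD groups (101 to 133 against 140 to 159), Atp5g2 is not, and Sdhb is highest in NDKO (71.3 to 81.7).

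The second comparison asked whether the genotype labels changed these genes, and Thbs1 ran against those labels on the control diet. In NDKO against NDWT 0 members were DEGs, against 4.77% of all tested genes, with 4 members at an unadjusted p under 0.05 by limma and 0 DEGs by voom. By the FDR alone 2 members passed, against 13.1% of all tested genes. The members' median log2FC was -0.01 and that of all tested genes -0.07. Sdhb was higher in the libraries labelled null (71.3 to 81.7 FPKM against 57.9 to 71.0, log2FC 0.25, SE 0.07, adjusted p = 0.0197), without overlap, and the call was lost without NDKO library 1 or NDWT library 3. Ndufb3, an accessory subunit of complex I, was 64.2, 64.1, 60.5, 51.9 and 56.6 FPKM in NDWT and 43.5, 48.3, 52.8, 52.6 and 48.6 in NDKO. It was lower there (log2FC -0.27, SE 0.08, adjusted p = 0.0324), with an overlap, and 11 of 35 alternatives lost the call, among them leaving out NDKO library 1 or 2, NDWT library 1, 2 or 3 or NDWT libraries 1 and 2 together, and all 3 rescalings. The count of members passing was 0 without NDKO library 1, 0 without NDWT library 3, 1 without NDKO library 2, 1 without NDWT library 1 and 3 without NDKO library 5.

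On CDAHFD, HFKO against HFWT gave 0 DEGs among the members, against 0.496% of all tested genes, and 0 by the FDR alone, against 1.12%. There were 2 members at an unadjusted p under 0.05 by limma, and voom gave 0 as well. The median log2FC was -0.03, where that of all tested genes was -0.10, and the summed FPKM differed by 0.048%. The interaction, which asks whether the genotype difference depended on diet, gave 0 by both rules, against 0.647% and 0.854% of all tested genes, with 1 member (Sdhb) at an unadjusted p under 0.05 and 0 by voom. A p that misses the threshold does not show that the groups were alike.

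Genes that work with these subunits were counted by lists written from general knowledge. Of the 13 subunits encoded by mitochondrial DNA, 5 fell and 0 rose by the FDR alone in WT and 4 and 0 in the libraries labelled null. Among all tested genes 8.73% and 7.69% fell and 64.4% and 64% rose. The median log2FC was -0.41 and -0.32, with sums of 25906 to 33150 FPKM in NDWT and 15002 to 26459 in HFWT. By genotype 1 of the 13 was a lower DEG in NDKO against NDWT and 1 in HFKO against HFWT. Among all tested genes 4.77% and 0.496% were DEGs there in either direction. mt-Cytb, the mitochondrial subunit of complex III, had a log2FC of -0.67 (adjusted p = 0.00162) and -0.55 (adjusted p = 0.00729). The mitochondrially encoded and the nuclear subunits thus both had medians below 0 on CDAHFD.

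A list of 8 nuclear genes outside the name rule held subunits and also the inhibitor Atpif1. By the FDR alone 3 fell and 2 rose in WT, where 8.73% of all tested genes fell and 64.4% rose. In the libraries labelled null 2 fell and 1 rose, where the shares were 7.69% and 64%. In each genotype 1 was a higher DEG, where 44.1% and 41.9% of all tested genes were. That gene was Atpif1, the inhibitor of ATP hydrolysis by complex V, which went from 3.11 ± 0.21 FPKM in NDWT to 13.5 ± 1.44 in HFWT (log2FC 2.08, adjusted p = 1.3e-11) and from 2.76 ± 0.61 in NDKO to 11.1 ± 0.44 in HFKO (log2FC 1.99, adjusted p = 3.11e-11). Ndufab1, the acyl carrier protein of complex I, fell (log2FC -0.48, adjusted p = 1.22e-05, and -0.22, adjusted p = 0.0134), as did Atp5o (log2FC -0.23, adjusted p = 0.00201, and -0.39, adjusted p = 1.42e-05).

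Assembly factors, which build the complexes without staying in them, had medians above 0 on the deposited scale. Of 15 tested for complex I, 9 rose and 0 fell by the FDR alone in each genotype, a share near the 64.4% and 64% of all tested genes that rose, with median log2FC of 0.28 and 0.24. Acad9 had a log2FC of 0.68 (adjusted p = 5.41e-07) and 0.74 (adjusted p = 1.86e-07). Of 29 for complexes II to V, 12 rose and 0 fell in WT and 12 rose and 2 fell in the libraries labelled null, a smaller share than among all tested genes. Coa3, a complex IV factor, had a log2FC of 0.51 (adjusted p = 3.93e-05) and 0.63 (adjusted p = 3.68e-06). The medians of both lists were below that of all tested genes, and after median of ratios scaling they lay at -0.28 and -0.28 for complex I and at -0.38 and -0.35 for the others, so that their direction depended on the scaling.

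Of 12 regulators of these genes, 5 rose and 3 fell by the FDR alone in WT, where 64.4% of all tested genes rose and 8.73% fell, and 3 and 1 in the libraries labelled null, where the shares were 64% and 7.69%. Nrf1, the factor whose core motif was searched above, was 0.951 ± 0.10 FPKM in NDWT and 1.59 ± 0.09 in HFWT (log2FC 0.69, adjusted p = 1.11e-06, where the median of all tested genes was 0.53), with a log2FC of 0.20 (adjusted p = 0.0585) in the libraries labelled null, and the interaction did not pass (adjusted p = 0.0627). Tfam, which packages and transcribes mitochondrial DNA, had a log2FC of -0.35 (adjusted p = 0.000306) and -0.12 (adjusted p = 0.156). Of 26 other proteins of the mitochondrial matrix and membranes, 13 rose and 6 fell by the FDR alone in WT and 11 and 7 in the libraries labelled null. Fewer thus rose and more fell than the same shares of all tested genes. The list's median log2FC was 0.16 and 0.04, below the 0.53 and 0.50 of all tested genes. Slc25a4, an ATP and ADP carrier of muscle and heart, went from 2.30 ± 0.48 FPKM in NDWT to 12.2 ± 0.81 in HFWT (log2FC 2.38, adjusted p = 2.3e-11) and from 2.36 ± 0.47 in NDKO to 10.5 ± 1.88 in HFKO (log2FC 2.11, adjusted p = 1.47e-10).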

How the data were processed

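RNA enriched for poly(A) from 20 mouse livers was sequenced in pairs. The authors aligned reads with STAR 2.5.2 and counted them with featureCounts (Subread 1.5.1), and deposited 1 table of FPKM per gene. The submitters' notes name GRCh38, whereas identifiers and coordinates are those of mouse GRCm38. The lobe is named differently in the sources. Here genes that exceeded 0.5 FPKM in 5 or more libraries were tested on log2(FPKM + 0.1) with limma 3.58.1 (R 4.3.3), 1 model over the 4 groups, two-sided, with Benjamini-Hochberg adjustment over 14524 genes. A fold change on that scale understates the change of low genes. Fragments were recovered from FPKM, length and library totals, where at least 99.9554% of values checked came out whole, and served for voom. The fit was tested on simulated data. Every 2 libraries of a group differed beyond counting noise. Replicates are separate mice. The genes and lists were chosen with earlier results of these data known. Genes described in full were each complex's most abundant member, its 2 lowest FDRs in each diet comparison under the DEG rule, tissue forms, genotype calls, and those named as chosen later; of other lists, up to 4 with the lowest FDR. The replicate numbers do not pair mice, with correlations of deviations from -0.133 to 0.0807. Promoter windows were from RefSeq. 1 gene is not reported here by name. Python 3.11.15 was used for the rest.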

Additional observations from a re-analysis of the deposited data

Results flagged for a closer look

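Of 120 groups of 5 libraries screened, 4 held a library far from the others, where chance alone flags about 1 in 20. Cox6b2, the testis form of COX6B, was 2.402 FPKM in HFWT library 5 and 0.712 to 0.956 in the other HFWT libraries. Cox7a1, the muscle form of COX7A, was 1.762 FPKM in HFWT library 3 and 3.791 to 4.45 in the others. Sdha was 141.397 FPKM in NDKO library 5 and 112.323 to 120.405 in the other libraries labelled NDKO. Sdhd was 125.25 FPKM in NDKO library 3 and 135.938 to 138.151 in the others.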

How the results depend on the processing

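The scaling moved the counts most. In HFWT against NDWT, median of ratios scaling gave 1 higher and 60 lower DEGs and 1 higher and 73 lower by the FDR alone, with a median log2FC of -0.69, and the same scaling on genes above 10 FPKM gave 5 lower DEGs, 2 higher and 66 lower by the FDR alone and -0.37. In HFKO against NDKO the former gave 1 and 59 DEGs, 1 and 73 by the FDR alone and -0.67, and the latter 6 lower DEGs, 71 lower by the FDR alone and -0.40. Quantile normalization gave 1 higher and 1 lower DEG in WT and 1 and 4 in the libraries labelled null, with a median of -0.25 in the latter. The median for HFKO against HFWT was 0.075 under median of ratios scaling, above 0. Higher DEGs were 1 in each genotype with a pseudocount of 1 or a filter at 1 FPKM, and 0 among genes with a mean above 10, where 3 members rose by the FDR alone in WT and 0 in the libraries labelled null. The filter at 1 FPKM left 1 higher by the FDR alone in the latter, and fitting the 2 groups alone left 3 in WT. Without NDWT libraries 1 and 2 together, 4 members were higher DEGs in WT, and 9 rose and 18 fell by the FDR alone. In NDKO against NDWT, 1 member passed by the FDR alone with no filter and 1 with the 2 groups alone. In WT, Atp5g2, Cox7a2l and Ndufs8 turned to -0.37, -0.37 and -0.38 under median of ratios scaling and to -0.045, -0.0467 and -0.0551 under that on genes above 10 FPKM, and Ndufa4l2 to -0.15 under quantile normalization. The filter and scaling on genes above 10 FPKM, leaving out both NDWT libraries and the counts by the FDR alone were chosen after seeing the data.

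Leaving out 1 library at a time gave 2 to 3 higher DEGs in WT and 2 in the libraries labelled null, with 0 lower DEGs in both. By the FDR alone 3 to 7 rose in WT (3 without HFWT library 4 or NDWT library 3, 4 or 5) and 23 to 35 fell, and 24 to 44 fell in the libraries labelled null. The count for NDKO against NDWT was 0 to 3. The medians were -0.17 to -0.12 in WT, -0.19 to -0.10 in the libraries labelled null, -0.03 to 0.03 for NDKO against NDWT and -0.06 to 0.01 for HFKO against HFWT. With the replicate block, 2 higher and 0 lower DEGs stood in each diet comparison, with 4 higher and 31 lower by the FDR alone in WT, 2 and 30 in the libraries labelled null, 2 in NDKO against NDWT and 0 in HFKO against HFWT; the call of Atp5g2 was lost. Genes near 0 are limited by depth. The causes of these shifts were not tested.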
